A study of Rattus norvegicus with 8 samples.

Results

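The endoplasmic reticulum stress response was followed in burned rat skin through 8 genes, 8 of the 26404 gene identifiers in the count table. They were chosen by name for what their products do, with earlier results of these data known. The chaperone arm held Hspa5 (ENSRNOG00000018294), Hsp90b1 (ENSRNOG00000026963), Pdia4 (ENSRNOG00000006228) and Calr (ENSRNOG00000003029). The ATF4-CHOP branch held Ddit3 (ENSRNOG00000006789), Atf4 (ENSRNOG00000017801), Trib3 (ENSRNOG00000007319) and Asns (ENSRNOG00000007546). The count table lists identifiers alone, and the symbols are the ones that the choice of genes paired with them. All 8 identifiers were in the table, and all 8 passed the filter on low counts that left 14240 genes for testing.

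Skin came from the dorsal hind paw of Sprague-Dawley rats weighing 125 to 200 g. Under urethane anaesthesia, 1 hind paw was immersed for 2 min in 60 °C saline to give a deep partial-thickness burn, and the paw of the other side was placed in room temperature saline. Both paws therefore shared the anaesthetic, the immersion and the probe insertion, since the tissue was cut from microdialysis sites, and a control paw belonged to an animal with a burn elsewhere. Poly(A)-enriched RNA gave 4 burn and 4 control libraries, whose totals ran from 13693811 to 18738652 counts in burn and from 17824830 to 26837925 in control. How long after the burn the skin was cut out is not stated in the sources used here.

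Proteins that enter the secretory pathway fold inside the endoplasmic reticulum with the help of chaperones, lectins and disulphide isomerases. When unfolded protein accumulates there, the sensors ATF6 and IRE1 (through XBP1) raise the transcription of chaperone genes. A different sensor, the kinase PERK, phosphorylates the translation factor eIF2-alpha. General translation then drops while the ATF4 messenger is translated better, and ATF4 switches on genes of amino acid supply and the transcription factor CHOP, which Ddit3 encodes. Because other kinases phosphorylate the same factor in response to amino acid shortage, haem shortage or double-stranded RNA, the ATF4-CHOP branch can be engaged without stress in the endoplasmic reticulum. It is often called the integrated stress response for that reason.

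The DNA before the genes was also searched for the exact letters of known elements. These sequences are shown because the genes of one arm are known to be switched by shared elements. Windows of 300 bases, from 250 before to 50 after the annotated start site, were taken from RefSeq on build GRCr8 for all 8 symbols. The stress response element ERSE, which is CCAAT and CCACG with any 9 bases between them, was found on either strand in 22 of the 33469 rat promoter windows of that length, or 0.0657%. Exact matches occurred in 3 of the 4 chaperone windows, with 1 match in Hspa5, 2 in Hsp90b1 and 1 in Calr. No window of the ATF4-CHOP branch held an exact match. Since shared elements were already known for the genes of one arm, these matches describe the letters. They do not test a difference between the arms. The 4 matches, each read in the direction of the element, were these.
Hspa5: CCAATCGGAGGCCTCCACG
Hsp90b1, far match: CCAATCGAAAGGAGCCACG
Hsp90b1, near match: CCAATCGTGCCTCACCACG
Calr: CCAATCAGGGTCGACCACG

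The 250 bases before the start sites of these genes follow, 5′ to 3′ on the strand of the gene, with the ERSE matches in capitals. The Hspa5 stretch is chr3:38452766-38453015 on the plus strand, the Hsp90b1 stretch chr7:23012294-23012543 on the minus strand and the Calr stretch chr19:40213117-40213366 on the plus strand. The match in Hspa5 began 43 bases before the start site. Those in Hsp90b1 began 176 and 72 bases before it, the near match lying on the opposite strand, and the match in Calr, also on the opposite strand, began 232 bases before it.
Hspa5: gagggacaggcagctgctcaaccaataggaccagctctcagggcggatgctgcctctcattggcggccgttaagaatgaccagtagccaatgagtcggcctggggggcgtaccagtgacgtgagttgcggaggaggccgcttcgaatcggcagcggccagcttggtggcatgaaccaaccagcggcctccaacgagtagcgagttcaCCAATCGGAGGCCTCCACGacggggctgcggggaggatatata
Hsp90b1: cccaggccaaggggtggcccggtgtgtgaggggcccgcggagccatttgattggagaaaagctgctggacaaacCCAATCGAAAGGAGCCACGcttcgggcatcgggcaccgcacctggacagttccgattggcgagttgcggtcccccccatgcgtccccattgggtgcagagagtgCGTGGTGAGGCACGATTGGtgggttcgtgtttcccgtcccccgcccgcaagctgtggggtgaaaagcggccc
Calr: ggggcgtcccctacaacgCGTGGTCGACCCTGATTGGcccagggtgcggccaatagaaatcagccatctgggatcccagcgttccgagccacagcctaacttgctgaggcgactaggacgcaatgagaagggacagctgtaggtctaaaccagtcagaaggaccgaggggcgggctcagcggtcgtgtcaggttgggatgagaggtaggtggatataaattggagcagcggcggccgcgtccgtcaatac

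Shorter elements were searched in the same way. The CCAAT letters, which every ERSE match contains, were in 37.5% of all windows, in 4 of the 4 chaperone windows and in 1 of the 4 windows of the ATF4-CHOP branch, that of Ddit3. The letters TGACGTG, bound by ATF6 and XBP1, were in 1.81% of all windows and, among the 8, in Hspa5 alone. The ERSE-II letters, ATTGG and CCACG with any 1 base between them, were in 0.0508% of all windows and in none of the 8. The C/EBP-ATF response element, through which ATF4 acts, was searched as TGATGNAA. It was in 3.98% of all windows and, among the 8, in Trib3 alone, where it began 21 bases before the start site on the opposite strand. The Ddit3 stretch, chr7:65001445-65001694 on the plus strand, has its CCAAT letters (reversed) in capitals. It is printed because Ddit3 was the 1 gene of the 8 that passed the edgeR test. The Trib3 stretch, chr3:161275534-161275783 on the minus strand, has the C/EBP-ATF letters (reversed) in capitals. A match is a description of the letters, and these windows do not cover more distant elements. Only exact letters were counted, so an element with 1 base changed was missed. In Ddit3 the letters CGTGC lie 9 bases before ATTGG, where a reversed ERSE has CGTGG, a difference of 1 base.
Ddit3: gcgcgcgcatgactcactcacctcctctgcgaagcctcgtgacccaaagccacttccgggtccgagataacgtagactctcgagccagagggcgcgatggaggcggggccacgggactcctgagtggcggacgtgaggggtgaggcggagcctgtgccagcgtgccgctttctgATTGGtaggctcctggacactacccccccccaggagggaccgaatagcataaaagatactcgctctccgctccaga
Trib3: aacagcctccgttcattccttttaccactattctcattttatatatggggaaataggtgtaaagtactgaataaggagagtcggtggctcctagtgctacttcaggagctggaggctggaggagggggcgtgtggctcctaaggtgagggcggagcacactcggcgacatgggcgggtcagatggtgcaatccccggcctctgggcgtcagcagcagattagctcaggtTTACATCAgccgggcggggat

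**Figure D1:**
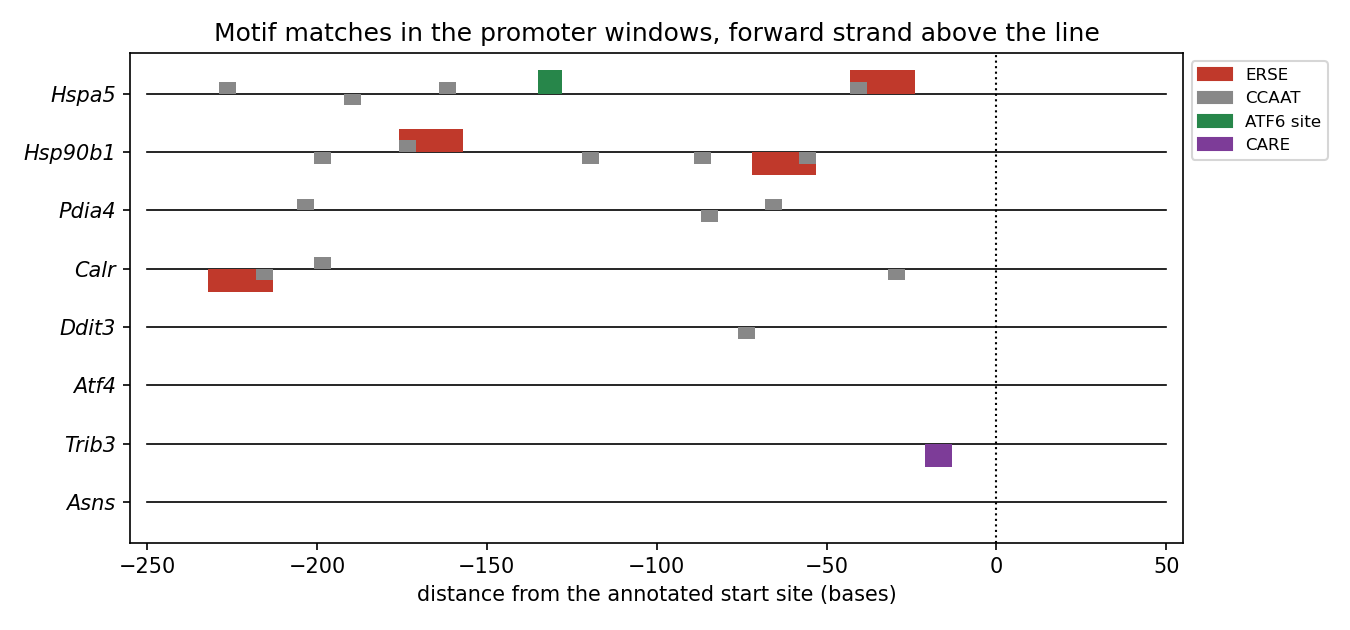
Positions of motif matches, in bases from the annotated start site (dotted line), in the promoter window of each of the 8 genes, with forward-strand matches drawn above each line and reverse-strand matches below it. ERSE matches lie in Hspa5, Hsp90b1 and Calr, and the single C/EBP-ATF match (CARE) lies in Trib3.

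Before the values, some properties of the libraries bear on all of them. The 25 most abundant genes, none of them among the 8, took 23.4% to 27.3% of counts in the control libraries. Their share was 15.1% in burn replicate 3 and 41.6% to 44.8% in the other burn libraries. Burn replicate 3 also had counts for 15354 genes, where the other 7 libraries had 17322 to 17547. Abundance is given below as CPM (counts scaled to a common library total) after scaling with TMM factors, which allow for such differences in make-up. The factors were 1.05 to 1.14 in control, 1.20 in burn replicate 3 and 0.807 to 0.894 in the other burn libraries. A lower or higher level in whole skin can reflect a changed number of cells of a type or changed RNA per cell. These cannot be told apart here.

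Burned and control skin were compared to ask how each arm differed at the injured site. Ddit3, the gene for CHOP, was higher in burned skin by 2.38-fold and was the 1 gene of the 8 that passed the test (edgeR quasi-likelihood test, adjusted p = 0.0163). None of the 4 chaperone genes passed the edgeR test, and 1 of them, Hspa5, had an unadjusted p under 0.05. The DESeq2 Wald test and limma-voom with sample quality weights each called 1 of the 4, and limma-voom without weights called 0. All 4 had fitted values below control, by 11.7% for Calr to 27.5% for Hspa5. In the same test the share of all 14240 genes called was 11.9% in the higher direction and 10.0% in the lower, 21.9% in all, so that 1 call among 8 genes, counting either direction, is no larger a share than in the whole table. The median log2 fold change was -0.32 over the 4 chaperones and 0.45 over the 4 genes of the ATF4-CHOP branch, against 0.06 over all genes tested. The branch median covered unlike genes, from -0.36 for Asns to 1.25 for Ddit3. It was 0.03 without burn replicate 3 and -0.06 by limma-voom with sample quality weights, so it does not show the branch raised as a whole.

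Ddit3 encodes CHOP, a transcription factor of the C/EBP family that accumulates under prolonged stress and is known for promoting cell death. Its CPM was 20.7, 21.8, 14.7 and 10.4 in burn replicates 1 to 4. In control replicates 1 to 4 it was 9.08, 6.23, 6.52 and 6.52. Every burn library lay above every control library, although burn replicate 4 was only slightly above control replicate 1. Group means were 16.9 ± 5.33 CPM in burn and 7.09 ± 1.34 in control (SD, n = 4). These levels rested on 173 to 329 reads per burn library and 132 to 233 per control library. The fitted log2 fold change was 1.25 (SE 0.28), with a 95% interval of 0.62 to 1.88, and 90.8% of the genes tested had a lower fold change. Groups that did not overlap were found for 31.0% of all genes tested, 15.4% with burn higher. The call was lost when control replicate 2 or control replicate 4 was left out, at log2 fold changes of 1.18 and 1.21 and edgeR adjusted p = 0.0588 and 0.0513. Without burn replicate 3 the log2 fold change was 1.31 (edgeR adjusted p = 0.0136).

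Atf4 encodes the transcription factor at the head of the branch, whose output is known to be set largely by translation of its messenger. Burn replicates 1 to 4 had 286, 410, 312 and 280 CPM. The corresponding control values were 316, 360, 266 and 262. Burn replicate 2 was the highest of the 8 libraries and the other 3 burn libraries lay inside the control range. The log2 fold change was 0.10, with a 95% interval of -0.34 to 0.53 (edgeR adjusted p = 0.749), so fold differences of 0.791 to 1.44 in level remained within the interval. Its sign turned to -0.12 with scaling by library size alone, to -0.0073 by limma-voom with sample quality weights and to -0.044 without burn replicate 2. With library size alone the median of all genes was -0.15. Relative to that median Atf4 was 0.02, against 0.03 in the main fit.

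Trib3 encodes a pseudokinase that both ATF4 and CHOP are known to induce and that in turn restrains them. Its CPM was 6.08, 5.04, 19.8 and 3.37 in burn replicates 1 to 4. Control replicates 1 to 4 had 5.46, 4.85, 5.88 and 3.58. Burn replicate 3 alone was far above the rest, at 4.00 times the control mean on 377 reads, while the other 3 burn libraries had 56 to 76 reads. Of those 3, burn replicate 1 was just above the highest control library, burn replicate 2 inside the control range and burn replicate 4 just below the lowest. With all libraries the log2 fold change was 0.80, with a 95% interval of -0.40 to 2.00 (edgeR adjusted p = 0.301). Without burn replicate 3 it was -0.04 (edgeR adjusted p = 0.930), and limma-voom with sample quality weights gave -0.12. The library that carried the Trib3 reads was thus the one with the fewest detected genes and the smallest share of counts in the 25 most abundant genes, and their part in the Trib3 value was not tested.

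Asns encodes asparagine synthetase, a classical ATF4 target in amino acid shortage. In burn replicates 1 to 4 its CPM was 25.8, 19.9, 15.2 and 21.4, against 26.8, 27.3, 27.7 and 23.4 in control replicates 1 to 4. Of the burn libraries, 3 lay below every control library and burn replicate 1 lay among the controls. Burn replicate 3, the library with the most Trib3, had the least Asns, at 0.579 of the control mean. The log2 fold change was -0.36, with a 95% interval of -0.79 to 0.07 (edgeR adjusted p = 0.203). Scaling by library size alone gave -0.60 (edgeR adjusted p = 0.0457), a call that the other settings did not make. Relative to the median of all genes, Asns was -0.45 with that scaling and -0.42 in the main fit.

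Hspa5 encodes BiP, the HSP70-family chaperone of the endoplasmic reticulum that also holds the stress sensors inactive. Its CPM was 333, 337, 358 and 388 in burn replicates 1 to 4. Among control replicates 1 to 4 it was 458, 594, 473 and 429. No burn library reached any control library, and the control libraries were the more widely spread because of control replicate 2. Means were 354 ± 25.3 CPM in burn and 488 ± 72.5 in control (SD, n = 4). The log2 fold change was -0.46 (SE 0.17), with a 95% interval of -0.84 to -0.09, an unadjusted p of 0.0216 and an edgeR adjusted p of 0.0775. The DESeq2 Wald test gave -0.49 (adjusted p = 0.0184) and limma-voom with sample quality weights gave -0.42 (adjusted p = 0.0464), so the call for Hspa5 depended on the test. Across the 18 alternative settings its log2 fold change stayed between -0.67 and -0.37.

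Hsp90b1 encodes GRP94, the HSP90-family chaperone of the endoplasmic reticulum. Burn replicates 1 to 4 had 297, 347, 332 and 356 CPM, and control replicates 1 to 4 had 424, 424, 365 and 422. The groups did not overlap, but control replicate 3 stood well below the other control libraries and close to the highest burn library. The log2 fold change was -0.30, with a 95% interval of -0.64 to 0.04 (edgeR adjusted p = 0.183).

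Pdia4 encodes ERp72, a disulphide isomerase that works with these chaperones. It had 64.5, 77.5, 56.7 and 69.1 CPM in burn replicates 1 to 4. Control replicates 1 to 4 had 83.0, 78.1, 79.2 and 98.3 CPM. The groups did not overlap, by a narrow margin between burn replicate 2 and control replicate 2. Its log2 fold change was -0.34, with a 95% interval of -0.69 to 0.01 (edgeR adjusted p = 0.144). With scaling by library size alone it was -0.57 (edgeR adjusted p = 0.0396). Relative to the median of all genes, Pdia4 was -0.42 with that scaling and -0.40 in the main fit.

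Calr encodes calreticulin, a calcium-binding lectin that folds glycoproteins. Burn replicates 1 to 4 had 529, 503, 422 and 515 CPM and control replicates 1 to 4 had 598, 563, 492 and 578. Burn replicate 3 was below every control library, and the other 3 burn libraries lay between control replicate 3 and the remaining controls. The log2 fold change was -0.18, with a 95% interval of -0.55 to 0.19 (edgeR adjusted p = 0.450). Of the 4 chaperones, Hspa5, Hsp90b1 and Pdia4 thus had burn libraries that were all below control, a pattern found for 15.6% of all genes tested.

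**Figure D2:**
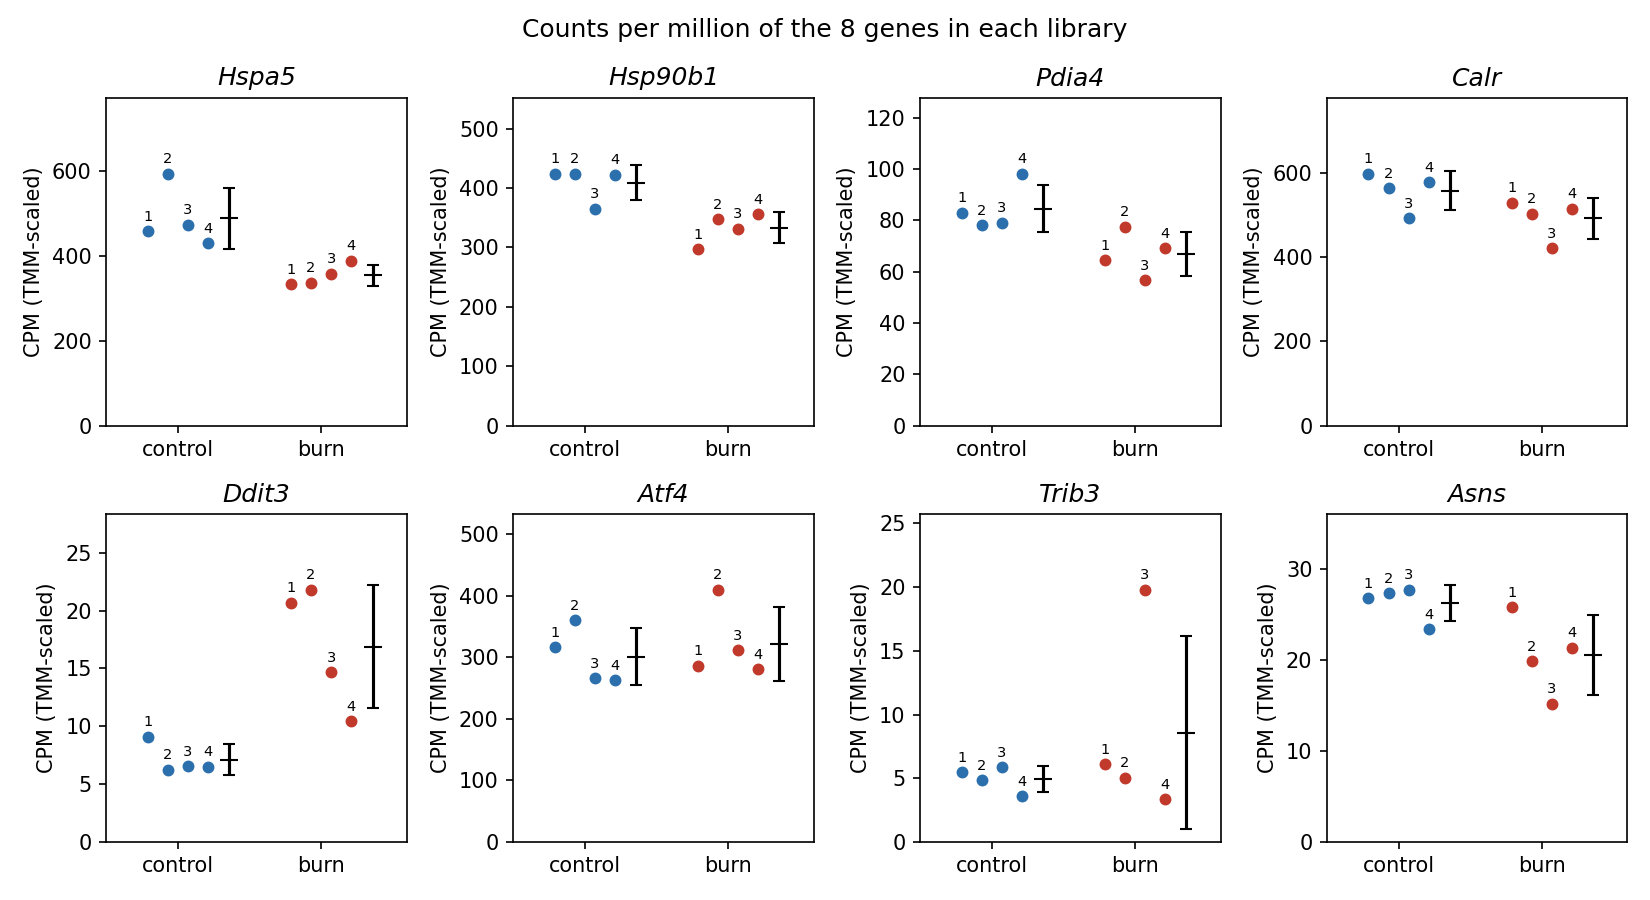
CPM after TMM scaling (vertical axes, from 0) of the 8 genes in 4 control (blue) and 4 burn (red) libraries, each point a library with its replicate number, and bars showing the group mean and SD. Burn and control points separate for Ddit3, Hspa5, Hsp90b1 and Pdia4, and the Trib3 mean in burn rests on replicate 3 at 19.8 CPM.

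The fitted values were recomputed under other settings. The log2 fold changes of all 4 chaperones were below 0 under each of the 18 alternative settings, and Ddit3 was above 0 under each. These settings reuse the same libraries. In the main fit many genes tested had a lower fold change than the chaperones. Their share was 25.6% for Hspa5, 30.8% for Pdia4, 32.6% for Hsp90b1 and 37.7% for Calr. Scaling by library size alone moved the median of all genes from 0.06 to -0.15. Relative to that median the chaperone median was -0.38 with TMM factors and -0.39 with library size alone, and Ddit3 was 1.19 and 1.16. Without burn replicate 3, the chaperone median relative to all genes was -0.31 and that of the ATF4-CHOP branch was 0.00, against 0.38 with all libraries.

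**Figure D3:**
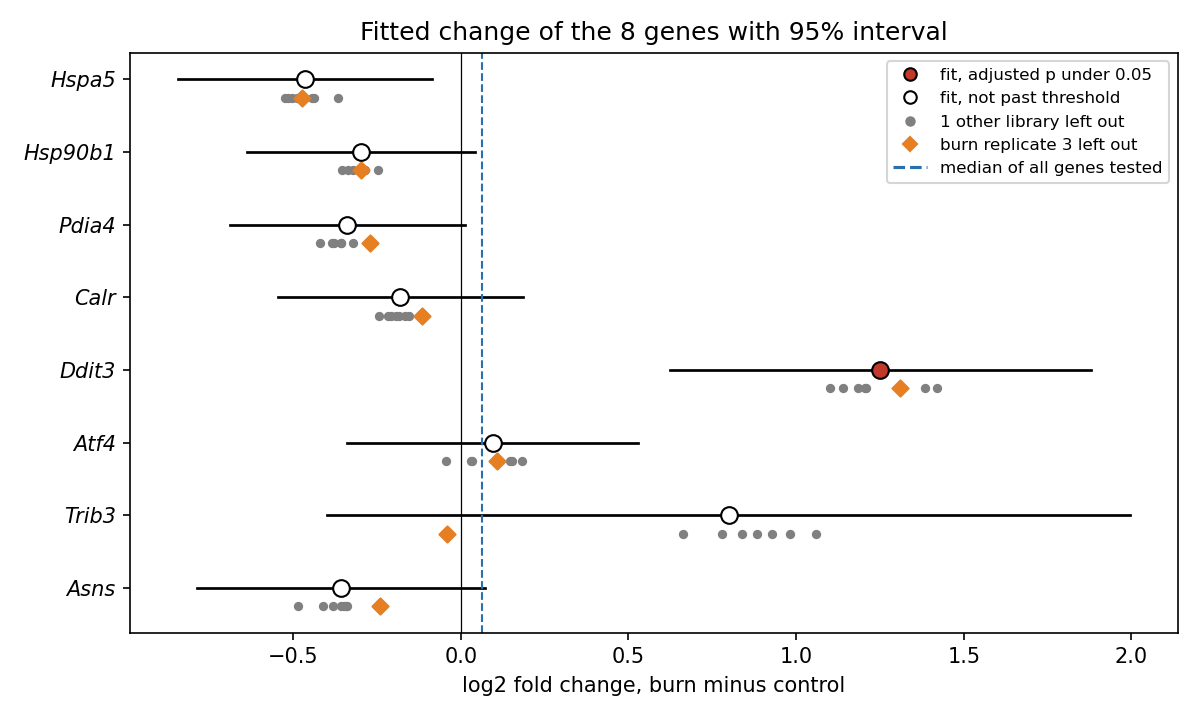
Log2 fold change (burn minus control) of the 8 genes from the edgeR fit with 95% intervals, the circle filled where the adjusted p was under 0.05, and below each the values with 1 library left out, that without burn replicate 3 as a diamond. Ddit3, at 1.25, is the only filled circle, and the Trib3 value moves from 0.80 to -0.04 without burn replicate 3.

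The chaperones varied less than most genes in both groups. The SD of log2 CPM among burn libraries was 0.10 for Hspa5, 0.12 for Hsp90b1, 0.15 for Calr and 0.19 for Pdia4, against a median of 0.52 over all genes tested. Only 2.07% of genes tested had a smaller SD in burn than Hspa5, and 9.87% had a smaller one than Pdia4, in a comparison not matched on abundance. Among control libraries the SD was 0.20 for Hspa5, 0.11 for Hsp90b1, 0.12 for Calr and 0.15 for Pdia4, against a median of 0.25, and 11.6% (Hsp90b1) to 38.0% (Hspa5) of genes had a smaller one. Hspa5 thus varied more in control than in burn. In the ATF4-CHOP branch the SD in burn was 0.25 for Atf4, 0.31 for Asns, 0.49 for Ddit3 and 1.08 for Trib3. In control these 4 genes had SDs of 0.22, 0.11, 0.25 and 0.31.

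Ratios of counts inside a library do not depend on how libraries are scaled. Those to Hspa5 set single genes against the chaperone with the lowest fitted log2 fold change (-0.46), not one arm against the other. They are described here without a test. The log2 ratio of Ddit3 to Hspa5 was -4.01, -3.95, -4.60 and -5.22 in burn replicates 1 to 4. For control replicates 1 to 4 it was -5.65, -6.57, -6.18 and -6.04. Every burn library was above every control library, and the mean difference of 1.67 corresponded to a 3.17-fold higher ratio in burn. Because Ddit3 was higher and Hspa5 lower in every burn library, this separation follows from their levels and adds no support to them. The share of other genes whose ratio to Hspa5 separates the groups was not computed. The Ddit3 ratio is given for its size. Its mean difference ranged from 1.50 to 1.92 when each library was left out in turn.

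Relative to Hspa5, Atf4 also separated the groups. Its log2 ratio was -0.22, 0.28, -0.20 and -0.47 in burn replicates 1 to 4. For control replicates 1 to 4 it was -0.53, -0.72, -0.83 and -0.71, a mean difference of 0.55. The separation was narrow between burn replicate 4 and control replicate 1. The Atf4 level itself did not separate the groups, so this ratio includes the lower Hspa5 values in burn. For Asns the ratio to Hspa5 overlapped, with a mean difference of 0.08, and for Trib3 it overlapped at 0.93 with all libraries and 0.42 without burn replicate 3. Ratios of the other chaperones to Hspa5 overlapped as well, with mean differences of 0.16 for Hsp90b1, 0.11 for Pdia4 and 0.27 for Calr.

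**Figure D4:**
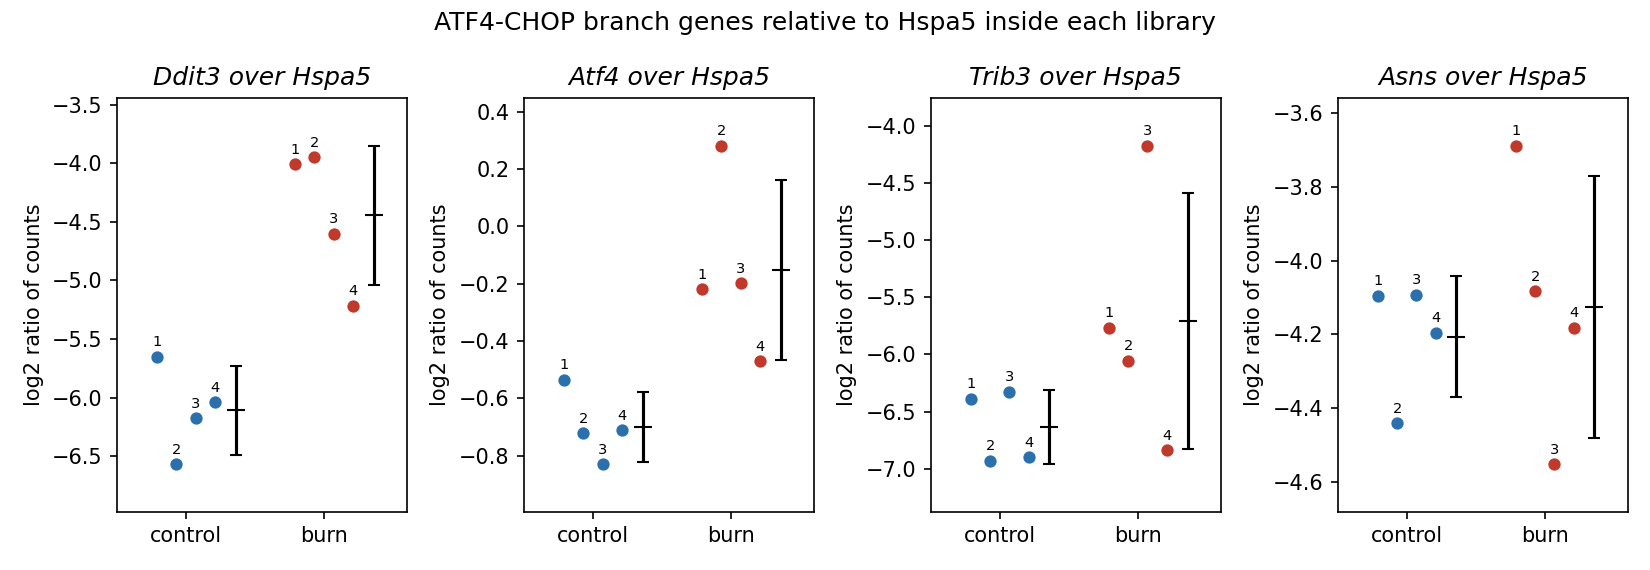
Log2 ratio of the counts of Ddit3, Atf4, Trib3 and Asns to those of Hspa5 inside each library, for 4 control (blue) and 4 burn (red) libraries, with replicate numbers and bars for the group mean and SD. For Ddit3 every burn library lies above every control library, with means of -4.44 in burn and -6.11 in control, while Trib3 and Asns overlap.

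Inside the ATF4-CHOP branch the genes did not keep one proportion. The ratio of Ddit3 to Atf4 was 2.17-fold higher in burn and that of Ddit3 to Asns 3.00-fold higher, both with every burn library above every control library. The level of Ddit3 itself separated the groups, so both ratios include its higher values in burn. How often pairs of other genes separate the groups was not computed. The log2 ratio of Ddit3 to Trib3 was 1.76, 2.11 and 1.62 in burn replicates 1, 2 and 4, above the control range of 0.15 to 0.86, but -0.43 in burn replicate 3, below it. Asns to Atf4 overlapped, with a mean log2 difference of -0.47.

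Profiles were also compared as the root mean square difference, in log2 CPM over the 8 libraries, after the control mean of each gene was subtracted. By this measure Hsp90b1 was the 206th closest to Hspa5 of 14239 other genes, at 0.18, Asns the 691st, Pdia4 the 805th and Calr the 995th. Atf4 was 3288th, Trib3 9995th and Ddit3 11940th. The genes closest to Hspa5 were ENSRNOG00000009358, at 0.04, and ENSRNOG00000019671, at 0.08. Closest to Ddit3 were ENSRNOG00000046383, at 0.16, and ENSRNOG00000000441, at 0.22. None of the other 7 genes was near Ddit3, Atf4 being the closest of them at 0.84, in place 4293. These ranks describe the 8 libraries, and the 4 identifiers are not paired with names in the files.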

How the data were processed

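The deposited table gives unnormalised read counts, in whole numbers, for Ensembl rat genes in 1 column per library. Per the submitters' processing notes, the authors' tools included edgeR, limma, R 3.0.1, HTSeq 0.5.4p3 and TopHat2 2.0.9, with build Rnor_5.0. The sources used here state no roles, annotation release or strand setting, so reads of overlapping or antisense genes cannot be told apart. Groups came from the treatment labels, and replicate numbers from accession order. Separate animals are not stated for the libraries of a group. The p-values then measure only the spread among these samples, which may be technical. No 2 libraries of a group agreed within sampling noise (chi-square over genes at least 28.3 times its degrees of freedom).

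The whole table was fitted with edgeR 4.0.16 in R 4.3.3 (robust quasi-likelihood test, group alone, TMM factors, default filter), two-sided, with Benjamini-Hochberg adjustment over 14240 genes and a threshold of 0.05. The SE is the log2 fold change divided by the square root of F. Log2 CPM used a prior count of 2 and ratios of counts a pseudocount of 0.5. The alternatives used DESeq2 1.42.0 and limma 3.58.1 among others. The procedure was also run on simulated counts, with the outcome not given here. That simulation left out the differences in make-up between libraries, so it does not bear on them. A count of 0 allows 0.112 to 0.219 CPM (3 counts) before TMM scaling. The lowest TMM-scaled value of the 8 genes was 3.37 CPM, for Trib3 in burn.

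The named genes are the 8 and, by a rule on profile likeness, the 2 genes closest to Hspa5 and to Ddit3. The 8 genes, lists and tests were chosen with earlier results of these data known. The 62 further pathway genes and 35 cell type markers listed by symbol were not analysed here, because 0 of the 47357 reference genes carried an Ensembl identifier. The labelled tissue was for the same reason not checked against markers. RefSeq windows are on GRCr8, and no coordinate was carried between builds.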

Additional observations from a re-analysis of the deposited data

Results flagged for a closer look

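Levels of the 8 genes and ratios between them were searched for any library lying far from its own group. Of 40 such searches 3 found one, and chance finds one in about 1 of 20 groups. Trib3 in burn replicate 3 was at 19.8 CPM, the next burn library being at 6.08. Ddit3 in control replicate 1 was at 9.08 CPM, where the next control library was at 6.52. Hsp90b1 in control replicate 3 was at 365 CPM, with the next control library at 422. The searches share genes and libraries.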

How the results depend on the processing

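The 18 alternatives were 10 that kept all libraries (scaling, filter, test, depth, abundant genes) and 8 that left out 1 library each. No paired analysis was possible because the labels give no animal or pair. Scaling by library size alone gave log2 fold changes of -0.57 for Pdia4 and -0.60 for Asns, both then past the threshold, -0.12 for Atf4 and 894 genes higher in burn. That setting also moved the median of all genes from 0.06 to -0.15. The DESeq2 Wald test gave -0.49 for Hspa5, then past the threshold, and 2184 genes lower. Voom with sample quality weights gave -0.42 for Hspa5, past the threshold, -0.0073 for Atf4 and -0.12 for Trib3. Leaving out 1 library gave log2 fold changes of 1.10 to 1.42 for Ddit3, -0.044 to 0.18 for Atf4 (negative without burn replicate 2) and -0.040 to 1.06 for Trib3 (negative without burn replicate 3). Those refits called 673 to 2314 genes higher and 546 to 1929 lower, against 1689 and 1426 with all libraries. The lowest counts came without control replicate 2 and the highest without burn replicate 3, and both counts also moved by over 1.5 times without burn replicate 1 or control replicate 1, 3 or 4. Fewer samples enter each of those refits, and what caused the remaining changes was not tested. Ddit3 was past the threshold in 16 of 18 alternatives. Over all 18 its adjusted p from edgeR, limma or DESeq2 ran from 0.00051 to 0.0588. Hsp90b1 and Calr kept their direction and stayed short of the threshold in all 18. Trib3 and Ddit3 had the fewest reads, so counting error weighs most on them.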
